A study of Mus musculus with 9 samples.

Results

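Cytochrome P450 (Cyp) genes of the mouse kidney were taken as every protein-coding gene in the count table whose symbol begins with Cyp and a digit, apart from Cyp27b1, Cyp24a1 and Cyp51. This gave 98 of 52636 genes in 15 families, with 50 genes in family 2, 20 in family 4 and 9 in family 3. RNA of whole kidney was sequenced in 9 libraries. Of these, 3 came from wild-type (WT) mice, 3 from mice with the Nfkb1 C59A knock-in allele and 3 from mice with the C59S allele, 2 substitutions at the same cysteine of the NF-kB1 (p50) protein. Both alleles also carried a PGK-neo selection cassette in an intron and were made in C57BL/6NTac-derived embryonic stem cells, per the labels. The labels call C59A activated and C59S inactivated, while their sentence on DNA binding runs in the opposite order, so no direction of NF-kB activity was assumed. Age, sex, zygosity and the strain of the WT mice are not stated in the labels, nor whether the replicates were separate animals. The p-values therefore speak of the variation among these libraries alone, part of which may be technical.

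P450 enzymes are heme proteins that insert oxygen into fatty acids, steroids, sterols, retinoids and foreign compounds. Those of the endoplasmic reticulum receive electrons from P450 reductase (Por), some with help from cytochrome b5, and those of mitochondria from adrenodoxin (Fdx1) and its reductase. In kidney, where the proximal tubule holds much of the P450, Cyp4a enzymes hydroxylate arachidonic acid at its end and Cyp2c and Cyp2j enzymes make epoxides from it, and both kinds of product act on vessels and on salt transport. Several mouse kidney P450 genes, among them Cyp4a12a and Cyp7b1, are known to differ in level between males and females.

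Total counts ran from 16367403 to 25787659 per library. The share of reads from mitochondrial genes was 18.2% ± 1.65 (WT), 24.9% ± 4.00 (C59A) and 28.8% ± 10.5 (C59S), as mean ± SD of 3 libraries. C59S replicate 3 had the highest share, 40.6%, against 25.3% and 20.5% in C59S replicates 1 and 2. Markers of kidney cells were present in every library: the lowest level of any of 8 proximal tubule markers (Slc7a13, which is also androgen-responsive, left aside) was 36.9 CPM and that of any of 4 podocyte markers was 30.9 CPM. CPM stands for counts per 1e+06 of the library total after TMM scaling. The C59A libraries also stood apart in transcripts of the sex chromosomes, and this bears on every C59A result below. Xist, the X-inactivation RNA, was 0.19 to 0.72 CPM in C59A, against 816 to 1276 CPM in WT and C59S. The Y-linked gene Eif2s3y was 82.0 to 88.7 CPM in C59A and 0 to 1.15 CPM in the other 6 libraries. Of 6 androgen-responsive kidney genes outside the P450 family, 5 were higher in C59A than in WT (adjusted p under 0.05), Kap among them. Over all genes tested, 3.24% were higher by the same threshold. The C59A genotype and this difference in sex-linked transcripts cannot be told apart in these libraries.

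Promoter sequences are shown for 5 genes that the results turn on: a near-identical pair that was higher in C59A, a pair of one cluster that moved in opposite directions, and the gene with the largest fold change. Each is the 250 bases before the RefSeq start site on build GRCm38.p6, read 5′ to 3′ on the strand of the gene. They are chr7:26306942-26307191 (Cyp2a4, plus strand), chr7:26835089-26835338 (Cyp2a5, plus), chr15:82452127-82452376 (Cyp2d9, plus), chr15:82794246-82794495 (Cyp2d26, minus) and chr4:96077548-96077797 (Cyp2j13, minus). In Cyp2a4 and Cyp2a5 capitals mark the bases at which the aligned pair differs. In Cyp2d26 they mark the letters AGAACA, a half-site that steroid hormone receptors can bind.
Cyp2a4: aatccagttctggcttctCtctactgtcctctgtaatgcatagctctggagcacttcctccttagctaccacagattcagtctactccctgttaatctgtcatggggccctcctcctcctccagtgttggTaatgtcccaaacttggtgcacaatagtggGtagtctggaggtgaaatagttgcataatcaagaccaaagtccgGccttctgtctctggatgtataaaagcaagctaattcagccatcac
Cyp2a5: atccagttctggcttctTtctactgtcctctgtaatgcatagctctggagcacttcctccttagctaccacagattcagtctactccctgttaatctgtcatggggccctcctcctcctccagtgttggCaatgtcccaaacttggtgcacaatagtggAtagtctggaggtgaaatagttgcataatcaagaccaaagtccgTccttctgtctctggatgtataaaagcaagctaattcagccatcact
Cyp2d9: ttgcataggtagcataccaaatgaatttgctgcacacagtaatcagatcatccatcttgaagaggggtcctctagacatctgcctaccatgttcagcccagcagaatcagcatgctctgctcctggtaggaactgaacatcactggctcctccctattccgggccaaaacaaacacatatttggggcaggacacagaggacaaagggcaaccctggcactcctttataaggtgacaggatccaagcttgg
Cyp2d26: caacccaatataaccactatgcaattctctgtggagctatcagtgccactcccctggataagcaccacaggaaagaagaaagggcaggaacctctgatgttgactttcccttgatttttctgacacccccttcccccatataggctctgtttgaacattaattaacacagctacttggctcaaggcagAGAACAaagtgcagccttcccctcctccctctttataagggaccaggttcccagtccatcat
Cyp2j13: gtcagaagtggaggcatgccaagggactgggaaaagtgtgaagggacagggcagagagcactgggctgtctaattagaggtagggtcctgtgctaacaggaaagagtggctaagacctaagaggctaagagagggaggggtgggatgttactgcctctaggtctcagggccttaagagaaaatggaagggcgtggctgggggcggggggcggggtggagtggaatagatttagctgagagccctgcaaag
The Cyp2a4 and Cyp2a5 stretches matched at 245 bases and differed at 4, with 2 unaligned, or 97.6% identity. Those of Cyp2d9 and Cyp2d26, which lie 333.3 kb apart in the same cluster, were 50.5% identical. Of the 98 genes, 75 had a RefSeq promoter window (250 bases before to 50 after the start), 7 of them among the genes higher in C59A than in WT and 2 among the lower ones. Either strand was searched for 4 motifs, whose matches could overlap. The letters AGAACA stood in 26.7% of the P450 windows against 19.0% of all 32851 windows, in 1 of the 7 higher genes (Cyp4b1) and in 1 of the 2 lower ones (Cyp2d26). AGGTCA, a nuclear receptor half-site, stood in 25.3% of the P450 windows against 16.3% of all, and in 2 of the 7 higher genes (Cyp2a4 and Cyp2a5, just after the start site and beyond the stretch shown). TTCNNNGAA, a STAT site, stood in 6.67% against 8.30% and in 1 of the 7 (Cyp4b1). The kappaB consensus stood in 6.67% against 4.51% and in none of these 9 genes. Among the tested P450 genes 35 had a window, and the shares there were 20% (AGAACA), 17.1% (AGGTCA), 8.57% (TTCNNNGAA) and 8.57% (kappaB consensus). All of these are matches of letters only.

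The share of all reads that fell on P450 genes was 0.314%, 0.357% and 0.346% for the WT libraries, 0.783%, 0.4996% and 0.758% for C59A, and 0.244%, 0.336% and 0.182% for C59S. Each C59A share was thus above each of the others. On the authors' FPKM scale, which divides by gene length and so allows levels of different genes to be compared, the summed P450 level (mean ± SD, n = 3) was 1402 ± 153 for WT, 3426 ± 800 for C59A and 1183 ± 201 for C59S. A few genes made up most of it. In WT the leading genes were Cyp2d26, Cyp2d12, Cyp2j5, Cyp4a31 and Cyp4a10, with 60.3% of the sum, and in C59A they were Cyp2a4, Cyp4b1, Cyp2e1, Cyp2d12 and Cyp4a10, with 60.8%. In C59S Cyp2a4, Cyp2d26, Cyp2d12, Cyp4a10 and Cyp2j5 led with 53.7%. Cyp2a4 took 19.9% of the sum in C59S replicate 1 but 5.71% and 7.61% in C59S replicates 2 and 3, so its place there comes from replicate 1. At the other end, 6 P450 genes had no count in any library and 44 had counts but did not pass the filter, most for low counts and a few, such as Cyp21a1, for counts in too few libraries. In bulk tissue a lower level of a gene may come from fewer cells of a type or from less RNA per cell, and these cannot be told apart.

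**Figure D1:**
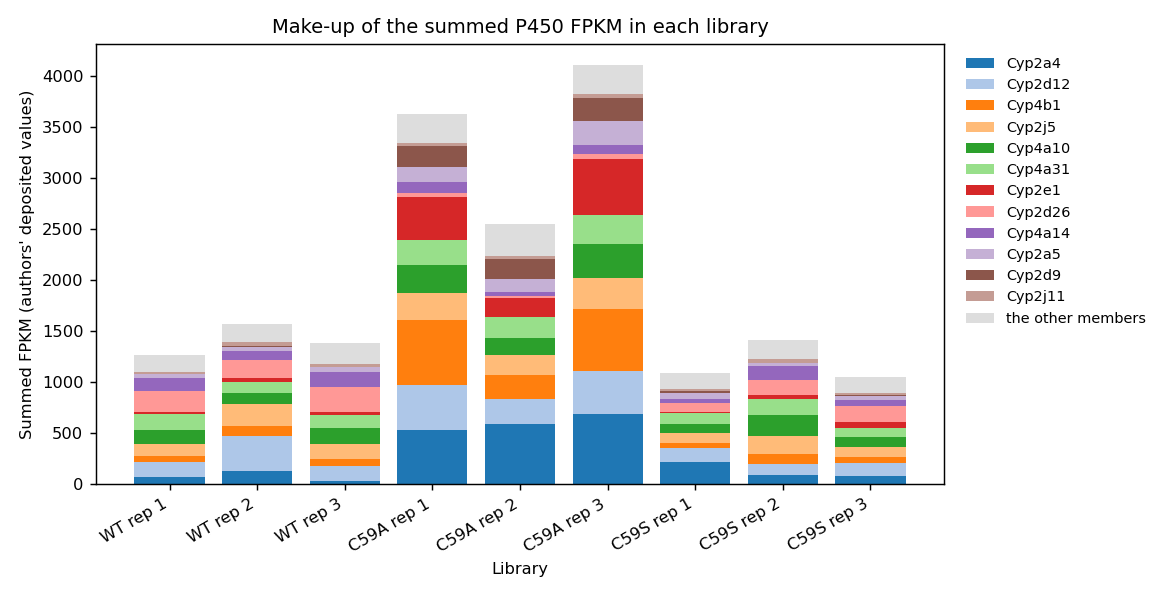
Stacked bars give the summed FPKM of P450 genes (authors' deposited values) in each of the 9 libraries, split into the 12 genes of highest mean FPKM and the other genes. The C59A bars reach 3626, 2545 and 4108 and the other bars 1051 to 1566, and Cyp2a4, Cyp4b1, Cyp2e1 and Cyp2d9 widen while Cyp2d26 narrows.

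In the comparison of C59A with WT, 48 of the 98 genes had enough reads to be tested, 11 rose, 2 fell and 35 did not pass. Here and below, p-values come from edgeR's quasi-likelihood test fitted to all 9 libraries, adjusted by the Benjamini-Hochberg method over 17114 genes, and a gene is called at an adjusted p under 0.05. Of all genes tested 5.7% were called (3.24% higher, 2.46% lower), against 27.1% of the tested P450 genes. The median log2 fold change was 0.097 over the tested P450 genes and -0.02 over all genes. The filter on low counts bore on this count at 1 gene: Cyp4f15 passed it through its C59A level alone, while 11 of the 13 called genes were past the level of 0.526 CPM in all 3 genotypes. By family, 5 genes rose and 2 fell of 23 tested in family 2, 5 rose of 14 in family 4, and Cyp7b1 rose alone in family 7. Groups did not overlap in 13 P450 genes that were higher and 9 that were lower, with a background of 12.6% and 12% of all genes. With library totals alone as the scaling, 9 P450 genes were higher and 4 lower, and the median of all genes shifted to -0.26.

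**Figure D2:**
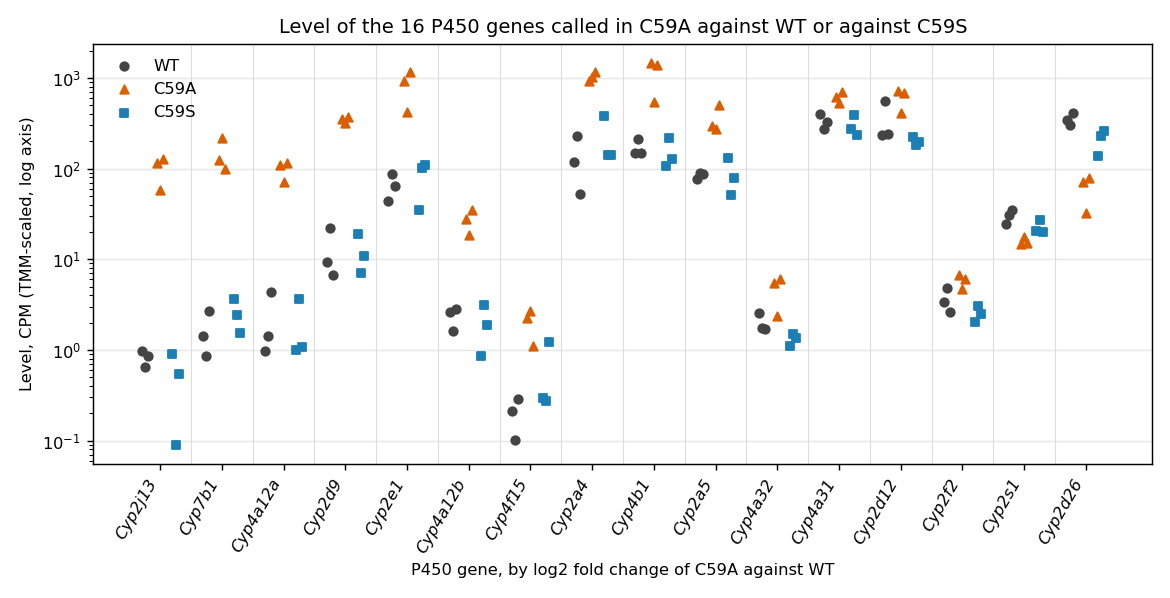
Points give the level in CPM (log axis) of each library for the 16 P450 genes called in C59A against WT or against C59S, ordered by the log2 fold change of C59A against WT. All 3 C59A points of Cyp2j13, Cyp7b1, Cyp4a12a and Cyp2d9 lie at or above 57.5 CPM, where WT and C59S points lie at or below 22.3 CPM.

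Among the genes that rose, Cyp2j13 and Cyp7b1 had the greatest fold changes. Cyp2j13 (chr4:96027534-96077546, minus strand, GRCm38), of the Cyp2j subfamily, stood at 0.969, 0.654 and 0.858 CPM in WT, at 117, 57.5 and 129 CPM in C59A, and at 0.895, 0.0902 and 0.540 CPM in C59S. All C59A libraries were far above the rest. The C59S replicate 2 value was under the 3-count floor of that library (0.135 CPM). Its log2 fold change of C59A against WT was 6.91 ± 0.50 (SE, adjusted p 0.000169). Cyp7b1 (chr3:18071950-18243338, minus strand), which hydroxylates oxysterols and steroids, was measured at 1.43, 0.855 and 2.67 CPM in WT, 124, 216 and 98.7 CPM in C59A, and 3.62, 2.44 and 1.55 CPM in C59S. Again no C59A library came near the other 6, and the log2 fold change was 6.46 ± 0.50 (adjusted p 0.00028).

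Among the other Cyp2j genes and the Cyp2c genes, which include the known kidney epoxygenases, none passed the test in C59A against WT. Cyp2j5, the main epoxygenase of the proximal tubule, was 279, 536 and 363 CPM in WT, 638, 465 and 707 CPM in C59A, and 244, 420 and 235 CPM in C59S. WT replicate 2 lay within the C59A range, and the log2 fold change was 0.62 ± 0.29 (adjusted p 0.249). Of the 8 Cyp2j genes, which share a cluster of 0.637 Mb on chromosome 4, 7 were tested and Cyp2j13 alone was called. Its nearest neighbour Cyp2j12, 21.8 kb away, had 7 counts in all libraries together and was not tested. The Cyp2j genes that did not pass ran from a log2 fold change of -0.75 (Cyp2j7) to 0.62. C59A replicate 2 stood apart in 2 of them: Cyp2j9 was 18.4, 53.6 and 18.7 CPM in C59A against 17.9 to 24.9 CPM in WT, and Cyp2j8 was 0.725, 4.76 and 0.715 CPM. Cyp2c44, an epoxygenase of kidney, was 48.9, 92.3 and 70.7 CPM in WT, 32.9, 25.0 and 46.2 CPM in C59A, and 58.2, 71.3 and 78.2 CPM in C59S. Every C59A value lay below every other, with a log2 fold change of -1.02 ± 0.26 and an adjusted p of 0.0501. It passed without WT replicate 1 (adjusted p 0.0287), without C59A replicate 3 (0.0319) and in DESeq2 (0.0034). With other libraries left out its adjusted p was up to 0.151. Of the 15 Cyp2c genes, 3 were tested, and Cyp2c68 and Cyp2c69 were near 1 CPM or below in every library apart from 1.31 CPM for Cyp2c68 in WT replicate 2.

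The Cyp4 family, whose enzymes hydroxylate fatty acids at the chain end, held 5 genes that rose and none that fell. Cyp4a12a (chr4:115299046-115332815, plus strand), a major arachidonic acid hydroxylase of mouse kidney, was 0.969, 1.41 and 4.39 CPM in WT, 108, 70.8 and 116 CPM in C59A, and 1.01, 3.65 and 1.08 CPM in C59S. It rose by a log2 fold change of 5.46 ± 0.66 (adjusted p 0.00412), and by 6.38 without WT replicate 3. Its close relative Cyp4a12b, 78.8 kb away, was 2.65, 1.61 and 2.86 CPM in WT, 28.1, 18.4 and 34.9 CPM in C59A, and 0.858, 3.16 and 1.89 CPM in C59S, a rise of 3.51 ± 0.42 against WT (adjusted p 0.00163). The 2 genes shared 48.9% and 49.4% of their 50-base transcript windows with another P450 gene, so how reads were split between them is uncertain.

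Cyp4b1 (chr4:115624725-115647723, minus strand), known for activating furan toxins and hydroxylating fatty acids, was 150, 214 and 150 CPM in WT, 1459, 537 and 1384 CPM in C59A, and 106, 219 and 128 CPM in C59S. C59A replicate 2 had the smallest of the 3 increases, and all 3 were above the other libraries, at a log2 fold change of 2.72 ± 0.41 (adjusted p 0.00525). The most abundant Cyp4a genes had smaller fold changes. Cyp4a31 was 401, 274 and 330 CPM in WT, 619, 526 and 701 CPM in C59A, and 274, 386 and 234 CPM in C59S, and rose by 0.88 ± 0.21 (adjusted p 0.0338). Leaving out WT replicate 2 (adjusted p 0.102), WT replicate 3 (0.074), C59A replicate 1 (0.102) or C59A replicate 3 (0.118) ended that call, as did scaling by library totals alone (0.148). Cyp4a10, a target of the fatty acid sensor PPAR-alpha, was 294, 225 and 322 CPM in WT and 592, 363 and 706 CPM in C59A, which did not overlap, but its change of 0.98 ± 0.35 did not pass (adjusted p 0.139). Without C59S replicate 2 the change was 0.99 (adjusted p 0.0417), and with other libraries left out the adjusted p was up to 0.380. Cyp4a14, another such target, was 337, 211 and 407 CPM in WT and 294, 104 and 237 CPM in C59A, at -0.59 ± 0.52 (adjusted p 0.579). Cyp4a32 was 2.57, 1.76 and 1.72 CPM in WT and 5.49, 2.38 and 6.01 CPM in C59A (1.19 ± 0.35, adjusted p 0.0744). Its adjusted p was 0.0175 without C59A replicate 2 and up to 0.268 with other libraries left out. Of the Cyp4a32 transcript windows 46.8% were shared with another P450 gene, 34.8% with the far more abundant Cyp4a10, so its counts are not fully separate.

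The Cyp4f genes, hydroxylases of leukotrienes and other fatty acids, had 6 tested of 9 and 1 called. Cyp4f15 was 0.211, 0.101 and 0.286 CPM in WT, 2.23, 2.66 and 1.10 CPM in C59A, and 0.298, 0.271 and 1.22 CPM in C59S. The WT replicate 2 value was under the 3-count floor of that library (0.151 CPM). Cyp4f15 rose by 3.27 ± 0.66 (adjusted p 0.0150), but C59S replicate 3 lay within the C59A range. The call was lost without WT replicate 1 (adjusted p 0.0644). Cyp4f13, the most abundant of them by FPKM, ranged over 53.2 to 58.7 CPM (WT) and 53.2 to 60.4 CPM (C59A).

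Among the genes of family 2 that act on foreign compounds and steroids, Cyp2a4, Cyp2a5 and Cyp2e1 rose and Cyp2s1 fell. Cyp2a4 (chr7:26307169-26315088, plus strand), a testosterone hydroxylase, was 119, 228 and 52.0 CPM in WT, 937, 1033 and 1177 CPM in C59A, and 382, 141 and 140 CPM in C59S. WT libraries ranged from 52.0 to 228 CPM, yet every C59A value was higher, with a log2 fold change of 2.98 ± 0.59 (adjusted p 0.0245), or 3.62 without WT replicate 2. The call was lost without WT replicate 1 (adjusted p 0.102) or without C59A replicate 1 (0.0616), 2 (0.064) or 3 (0.0849), and with the mitochondrial share as a covariate (0.0684). Cyp2a5 of the same cluster, 520.2 kb away (chr7:26835305-26843548, plus strand), is the coumarin hydroxylase whose promoter is printed above. It was 77.1, 89.8 and 86.7 CPM in WT, 298, 274 and 497 CPM in C59A, and 131, 51.6 and 78.9 CPM in C59S. It rose by 2.08 ± 0.34 (adjusted p 0.0072). Of the Cyp2a4 transcript windows 38.0% were shared with another P450 gene, 36.1% with Cyp2a5, so their counts are not fully separate.

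Cyp2e1 (chr7:140763739-140774987, plus strand), which oxidizes ethanol and other small molecules, was 43.6, 87.7 and 63.7 CPM in WT, 914, 417 and 1174 CPM in C59A, and 34.7, 103 and 109 CPM in C59S. The C59A libraries lay well above the rest, and the log2 fold change was 3.68 ± 0.56 (adjusted p 0.00749). Cyp2s1, expressed mainly outside the liver, fell by 0.92 ± 0.16 (adjusted p 0.00749), from 24.6, 30.8 and 34.5 CPM in WT to 14.7, 17.5 and 15.3 CPM in C59A, with C59S at 20.7, 27.4 and 20.04 CPM. Cyp2f2, best known from airway cells, was 3.41, 4.78 and 2.62 CPM in WT and 6.64, 4.70 and 6.05 CPM in C59A, which overlapped (0.69 ± 0.28, adjusted p 0.180).

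The Cyp2d cluster on chromosome 15 held changes in both directions. Cyp2d9 (chr15:82452377-82456827, plus strand), a testosterone hydroxylase, was 9.44, 22.3 and 6.77 CPM in WT, 350, 321 and 370 CPM in C59A, and 18.9, 6.99 and 10.9 CPM in C59S, a rise of 4.76 ± 0.53 (adjusted p 0.0021) that was 5.42 without WT replicate 2. Of the Cyp2d9 transcript windows 28.3% were shared with another P450 gene, 10.7% with Cyp2d12. Cyp2d26 (chr15:82790107-82794245, minus strand) went the other way, from 345, 304 and 409 CPM in WT to 71.5, 32.2 and 77.9 CPM in C59A, with C59S between at 138, 230 and 260 CPM. Its log2 fold change against WT was -2.54 ± 0.34 (adjusted p 0.00301). The 3 genotypes did not overlap for this gene. Cyp2d12, which lies between them, was 236, 562 and 240 CPM in WT, 713, 406 and 679 CPM in C59A, and 223, 183 and 199 CPM in C59S (0.79 ± 0.34, adjusted p 0.216). WT replicate 2 was the highest of the WT libraries, and without it the change was 1.33 (adjusted p 0.0104). With other libraries left out the adjusted p was up to 0.479. Cyp2d22, at the other end of the cluster, was 75.3, 56.7 and 88.4 CPM in WT and 58.4, 41.1 and 52.3 CPM in C59A (-0.54 ± 0.17, adjusted p 0.0903). Its adjusted p was 0.0305 without WT replicate 2 and up to 0.231 with other libraries left out.

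**Figure D3:**
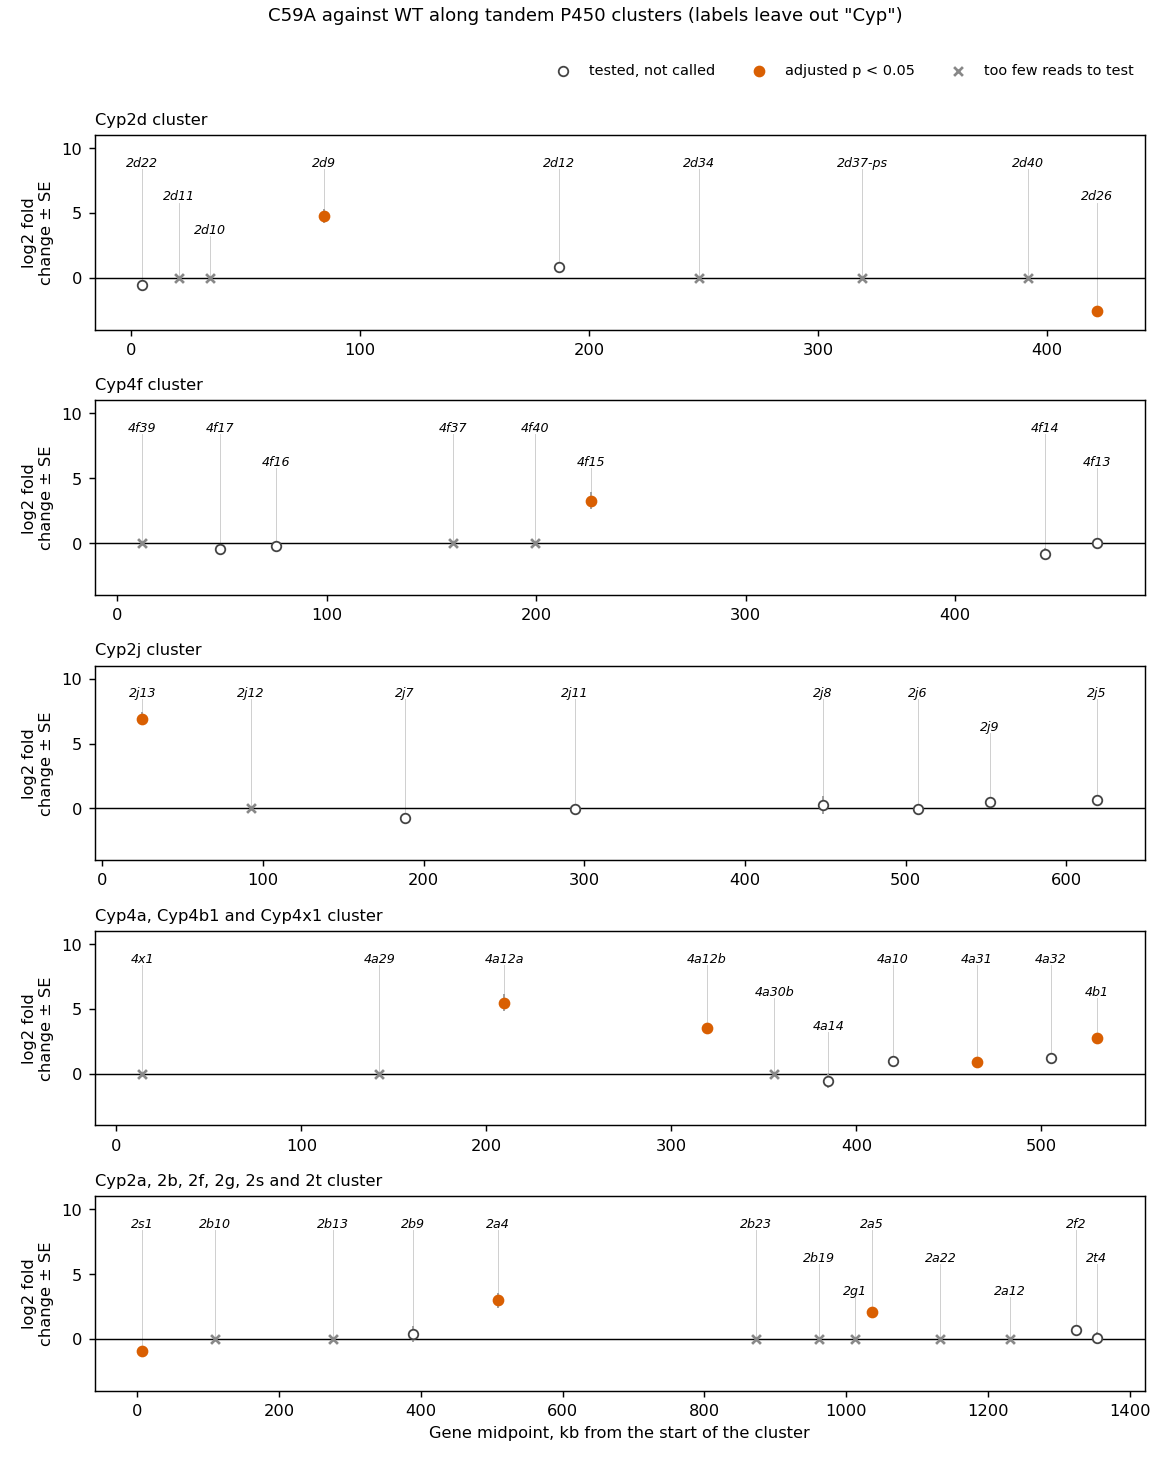
Each panel is 1 tandem cluster with a called gene, the x axis gives the gene midpoint in kb from the start of the cluster and the y axis the log2 fold change of C59A against WT with its SE. Filled points are called, open points tested and not called, and crosses at 0 mark genes with too few reads to test. Cyp2d9 and Cyp2d26 lie on opposite sides of 0 within 1 cluster.

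Among the tested P450 genes, those of sterol, retinoid and vitamin D handling other than Cyp7b1 did not pass. Cyp7a1 and Cyp8b1 had too few reads to be tested, and Cyp27b1, Cyp24a1 and Cyp51 were outside the gene set. Cyp27a1, the mitochondrial sterol hydroxylase, was 64.9, 59.9 and 70.0 CPM in WT, 71.3, 64.9 and 61.1 CPM in C59A, and 54.1, 56.3 and 57.7 CPM in C59S, so that the WT and C59A ranges overlapped (adjusted p 0.949). The retinoic acid hydroxylase Cyp26b1 was 18.6, 10.8 and 82.9 CPM in WT and 13.3, 3.00 and 28.7 CPM in C59A, with WT replicate 3 far above the others (-1.31 ± 0.97, adjusted p 0.508, and 0.04 without WT replicate 3). Cyp2r1, a vitamin D hydroxylase, was 0.8, 1.21 and 0.81 CPM in WT and 0.423, 0.51 and 0.62 CPM in C59A (-0.84 ± 0.43, adjusted p 0.296). The aryl hydrocarbon receptor target Cyp1a1 was 1.35, 1.11 and 2.19 CPM in WT, 5.86, 44.4 and 2.57 CPM in C59A, and 2.80, 2.39 and 9.45 CPM in C59S. C59A replicate 2 stood far above the others, and the change of 3.50 ± 1.18 against WT did not pass (adjusted p 0.152, and 0.0156 in DESeq2). Without that library it was 1.43 (adjusted p 0.246). Cyp1b1, another such target, ranged over 12.1 to 36.7 CPM (WT) and 22.4 to 38.9 CPM (C59A), with an adjusted p of 0.44. This was 0.0417 without WT replicate 3 and up to 0.711 with other libraries left out.

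In C59S against WT, no P450 gene passed, and none of all genes did (0% of 17114), although 6 of the 48 P450 genes and 3093 of all genes had an unadjusted p under 0.05. The median log2 fold change was -0.18 over the tested P450 genes, 31 of them negative and 17 positive, and 0.0095 over all genes. DESeq2 also called no P450 gene, but 636 of all genes. The smallest p-values belonged to Cyp4v3, a fatty acid hydroxylase, at 2.95, 4.63 and 4.24 CPM in WT and 6.90, 7.04 and 5.94 CPM in C59S (log2 fold change 0.75 ± 0.23, adjusted p 0.163). Next came Cyp4f17 (-0.69 ± 0.22, adjusted p 0.168) and Cyp2s1 (-0.40 ± 0.16, 0.233), whose WT and C59S values overlapped. Cyp2d26 (-0.75 ± 0.33, 0.264), Cyp2d12 (-0.78 ± 0.34, 0.265) and Cyp26a1 (-0.80 ± 0.36, 0.274) had every C59S value below every WT value. Groups did not overlap in 4 P450 genes that were higher and 7 that were lower in C59S, with a background of 22.5% of all genes. Same-numbered C59S and WT replicates deviated together, and a fit of these 6 libraries with the replicate number as a block called 1 P450 gene and 638 genes in all. The same block over all 9 libraries called 0 P450 genes and 0 genes in all. The 1 P450 gene of the 6-library fit was Cyp1a1, at a log2 fold change of 1.45 ± 0.31 (adjusted p 0.0493), against 1.61 ± 1.18 (adjusted p 0.51) without the block. Without WT replicate 3, Cyp1b1 passed at 1.19 ± 0.27 (adjusted p 0.0434), with 737 calls over all genes.

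**Figure D4:**
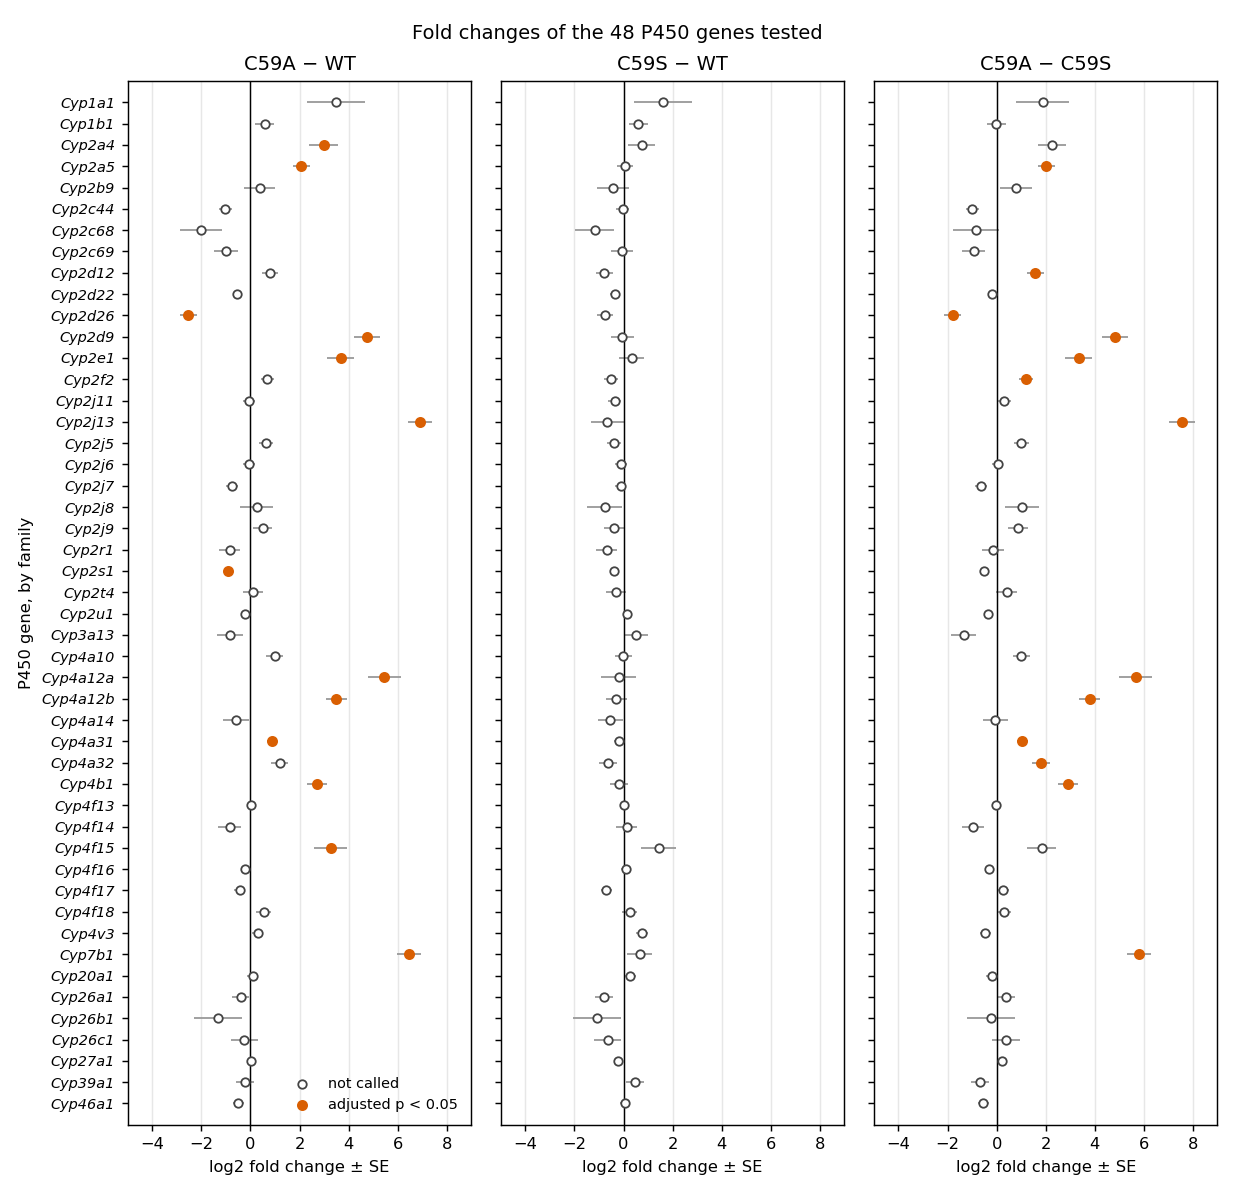
Log2 fold changes with their SE for the 48 P450 genes tested, by family, in C59A against WT, C59S against WT and C59A against C59S. Filled points passed an adjusted p of 0.05: 13 in the first panel, none in the second and 13 in the third.

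C59A against C59S shares its C59A libraries with the first comparison, so the values below are not a second, separate measurement. Here 12 P450 genes were higher in C59A and 1 was lower, of 48 tested, where 5.91% of all genes were called (3.35% higher, 2.56% lower). Groups did not overlap in 15 P450 genes that were higher and 8 that were lower, with a background of 29.3% of all genes. The median log2 fold change was 0.30 over the tested P450 genes and -0.01 over all genes. Against C59S and against WT, the log2 fold changes were 7.57 and 6.91 for Cyp2j13, 5.80 and 6.46 for Cyp7b1, 5.66 and 5.46 for Cyp4a12a, and 4.81 and 4.76 for Cyp2d9. The same pair of values was 3.80 and 3.51 for Cyp4a12b, 3.35 and 3.68 for Cyp2e1, 2.90 and 2.72 for Cyp4b1, and 2.03 and 2.08 for Cyp2a5. Leaving out C59S replicate 1 moved Cyp2j13 to 8.49, and leaving out C59S replicate 2 moved Cyp4a12a to 6.56. The Cyp2j13 level in C59S replicate 2 was under 3 counts. Cyp2d26 was the gene that was lower, at -1.79 ± 0.33 (adjusted p 0.016). Cyp2a4 did not pass against C59S (2.25 ± 0.57, adjusted p 0.0611), where C59S replicate 1 had 382 CPM, and it passed without that library (2.90, adjusted p 0.0254). With other libraries left out its adjusted p was up to 0.188. The epoxygenase genes Cyp2c44 (-0.99 ± 0.26, adjusted p 0.0551) and Cyp2j5 (1.01 ± 0.29, adjusted p 0.0688) did not pass either, although their C59A and C59S values did not overlap. Without C59A replicate 3 Cyp2c44 passed (adjusted p 0.0399), and without C59S replicate 2 Cyp2j5 did (0.0367). With other libraries left out the adjusted p was up to 0.177 for Cyp2c44 and 0.231 for Cyp2j5.

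Cyp4a31 (1.05 ± 0.21, adjusted p 0.0171), Cyp4a32 (1.81 ± 0.37, 0.0167), Cyp2d12 (1.57 ± 0.34, 0.0297) and Cyp2f2 (1.19 ± 0.28, 0.032) were also higher in C59A than in C59S. These 4 calls, and those of Cyp2d26 and Cyp2a5, were lost when certain libraries were left out, with fold changes of similar size. Over all 9 omissions the log2 fold change was 0.90 to 1.28 for Cyp4a31, 1.57 to 2.12 for Cyp4a32, 1.44 to 1.79 for Cyp2d12, 1.05 to 1.36 for Cyp2f2 and -2.02 to -1.49 for Cyp2d26. Calls over all genes fell from 1012 to as few as 318, without C59S replicate 3. Without C59A replicate 1 the P450 calls numbered 8 and the adjusted p-values were 0.0628 for Cyp4a31, 0.0719 for Cyp4a32, 0.101 for Cyp2d12, 0.117 for Cyp2f2 and 0.0533 for Cyp2d26. Without C59S replicate 3 the calls again numbered 8, with 0.0869, 0.0663, 0.108, 0.108 and 0.0632 for the same genes and 0.0533 for Cyp2a5. Leaving out C59A replicate 3 gave 0.0664 for Cyp4a31, 0.0753 for Cyp4a32, 0.106 for Cyp2d12 and 0.103 for Cyp2f2. Leaving out C59S replicate 1 gave 0.0516, 0.0511, 0.0608 and 0.0871 for these 4. Without C59S replicate 2 the values were 0.0514 for Cyp4a32, 0.101 for Cyp2d12, 0.0597 for Cyp2f2 and 0.0559 for Cyp2d26. The Cyp4a32 counts are also not fully separate from those of Cyp4a10, as given above.

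Partner genes of the P450 system were read from lists of electron donors, heme enzymes, regulators and other eicosanoid enzymes. Over all genes tested, 5.7% were called in C59A against WT and 5.91% in C59A against C59S. Of 10 redox genes tested, Cyb5a (cytochrome b5) was called in C59A against WT: it rose by 1.12 ± 0.17 (adjusted p 0.00333), from 404, 486 and 447 CPM to 843, 900 and 1153 CPM. Por, the reductase that serves all microsomal P450 enzymes, was 251, 292 and 222 CPM in WT and 270, 242 and 332 CPM in C59A, which overlapped. The list's median was 0.15 against -0.02 for all genes. Of 13 heme genes, Cpox, a step of heme synthesis, rose by 0.92 ± 0.19 (adjusted p 0.0148) and Hmox1, which breaks heme down, by 2.18 ± 0.24 (adjusted p 0.000664), from between 10.4 and 11.3 CPM in WT libraries to between 30.2 and 62.0 CPM in the C59A ones. Leaving out WT replicate 1 (adjusted p 0.0684), C59A replicate 1 (0.0574) or C59A replicate 3 (0.0568) ended the Cpox call. The heme list's median was 0.31, and Alas1, the rate-limiting step of heme synthesis, did not pass (adjusted p 0.538).

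Among 21 regulators tested, 3 rose and 2 fell in C59A against WT, with a median of -0.02. The share called over all genes tested was 5.7%. Nr1h4, the bile acid receptor, rose by 1.06 ± 0.17 (adjusted p 0.00411) and Prlr, the prolactin receptor, fell by 2.51 ± 0.32 (adjusted p 0.00269), from 125, 124 and 100 CPM to 21.01, 10.9 and 29.0 CPM. Nr1i2, the xenobiotic receptor PXR, was 15.6, 19.8 and 16.5 CPM in WT and 7.43, 10.3 and 8.77 CPM in C59A (-0.96 ± 0.18, adjusted p 0.01, and 0.0632 with the mitochondrial share as a covariate). Nr1h3, the oxysterol receptor LXR-alpha (0.48 ± 0.12, adjusted p 0.0397), and the estrogen receptor Esr1 (0.75 ± 0.20, adjusted p 0.0464) rose too. The Nr1h3 call was lost without any library other than C59A replicate 2 and C59S replicate 1 (adjusted p 0.0569 to 0.145), and the Esr1 call without any library other than WT replicate 2 (0.0596 to 0.156). Of 11 other eicosanoid genes 1 was called: Ephx2, the soluble epoxide hydrolase that opens the epoxides made by Cyp2c and Cyp2j enzymes, rose by 1.60 ± 0.22 (adjusted p 0.0021), from 93.7, 109 and 128 CPM to 374, 261 and 369 CPM. The eicosanoid list's median was -0.17. In C59S against WT none of the 55 tested partner genes was called, and without WT replicate 3 there were 3. Against C59S, Cyb5a, Cpox, Hmox1, Nr1h4 and Ephx2 were higher in C59A and Cebpa and Prlr lower, and the Cebpa call (adjusted p 0.0458) was lost without any library other than WT replicate 2 and C59S replicate 1, at 0.0538 to 0.163.

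Summed marker levels of cell types were read beside these results. Proximal tubule markers summed to 13990 to 14500 CPM (WT), 8092 to 11520 CPM (C59A) and 7943 to 11300 CPM (C59S). The hepatocyte list summed to 61.3 to 97.4 CPM (WT), 145 to 197 CPM (C59A) and 65.2 to 140 CPM (C59S), and adipocyte markers to 33.4 to 71.7, 169 to 296 and 158 to 1290 CPM in the same order. In C59A against WT, 2 of 9 proximal tubule genes were called higher and 1 lower, 1 of 9 hepatocyte genes was called (Serpina1a, higher) and none of 7 adipocyte genes. In other lists, 2 of 7 leukocyte genes were called higher. Called lower were 2 of 8 distal nephron and collecting duct genes, 1 of 4 podocyte genes and 1 of 4 tested adrenal cortex genes. None of 5 endothelial cell genes was called. The share called over all genes tested was 5.7%. Within the hepatocyte list, Serpina1a had a mean of 6.81 CPM in WT and 61.4 CPM in C59A, while Alb was 18.8 and 9.25 CPM. The median log2 fold change in C59A against WT was 0.13 over the hepatocyte list and -0.02 over all genes. For the other lists it was 6.34 (adipocyte), -0.56 (proximal tubule), 0.56 (leukocyte), -0.09 (distal nephron and collecting duct), -0.58 (podocyte), -0.19 (adrenal cortex) and 0.02 (endothelial cell). In C59S against WT no marker was called in any of these lists, with medians of 8.12 (adipocyte), -0.50 (proximal tubule) and 0.04 (hepatocyte). The part of these cell types in the P450 results was not tested.

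The P450 genes that did not pass the filter were read as raw counts, and 2 groups of them were found in some libraries and not in others. The steroid-making genes of the adrenal cortex were found in C59S replicate 2: Cyp21a1 had 911 counts there and 0 to 2 in each of the others, Cyp11b1 242 and 0, and Cyp11a1 171 and 0 to 3. Cyp11b2, the aldosterone synthase, had 1 count there. In the same library Hsd3b1, another adrenal steroid enzyme, had 923 counts against 0 to 7 elsewhere, and the adrenal regulator Nr5a1 99 against 0 to 1. A group of 11 P450 genes typical of liver, put together after their values were seen, among them Cyp3a11, Cyp2c37 and Cyp7a1, summed to 50 counts in WT replicate 1, 51 in C59A replicate 2, and 47 each in C59S replicates 1 and 3. Their sum was 0 to 3 in each of the other 5 libraries. The liver plasma protein gene Ahsg had 42 to 123 counts in those same 4 libraries and 0 to 3 in the others. Apoa1 had 110 to 198 counts in the 4 and 13 to 32 in the others. Albumin (Alb) did not separate them: it had counts in all 9 libraries, with 262 in C59A replicate 2 against 285 in WT replicate 2 and 301 in C59S replicate 2. Whether tissue beside the kidney was in these samples was not tested.

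**Figure D5:**
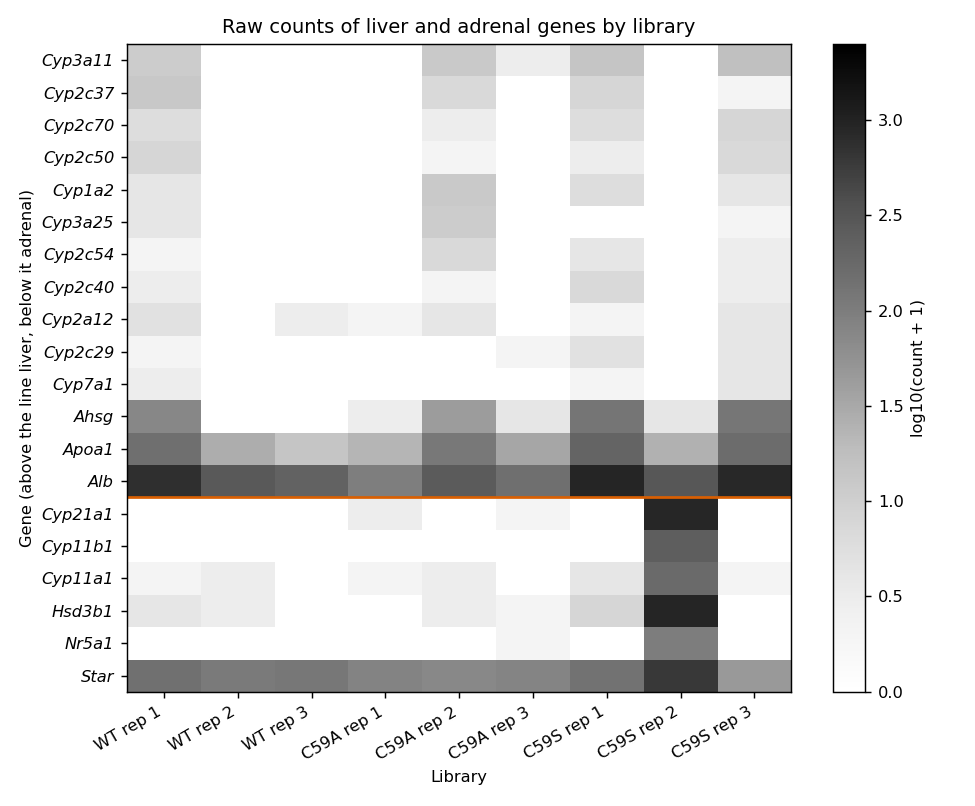
Grey tones give log10(count + 1) for P450 genes typical of liver with Ahsg, Apoa1 and Alb (above the line) and for adrenal genes (below it) in each of the 9 libraries. The adrenal genes are dark in C59S replicate 2, and the P450 genes typical of liver, with Ahsg, have most of their counts in WT replicate 1, C59A replicate 2 and C59S replicates 1 and 3. Alb and Apoa1 have counts in all 9 libraries, and Apoa1 has its highest counts in the same 4 libraries as Ahsg.

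Cyp2b10, a gene induced by drugs in liver, was another low gene. It had 6, 5 and 17 counts in the C59A libraries and 0 in all WT and C59S libraries. Against the limit that 0 counts allow (3 counts over a group), its C59A level was 10.9-fold above the WT limit and 10.8-fold above the C59S limit. These folds take the C59A counts as exact and cover counting error of the 0 counts only. Cyp2b9, of the same subfamily, was 1.31, 1.81 and 0.334 CPM in WT and 1.69, 1.81 and 1.00 CPM in C59A, and did not pass (adjusted p 0.797).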

How the data were processed

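Gene-level RNA sequencing of mouse kidney was read from the 2 tables of the series, which cover 9 libraries (3 per genotype, grouped by the labels). The counts are whole reads per gene as deposited by the authors. The FPKM values, deposited by the authors, are counts divided by gene length and 1 constant per library, as a check of the values showed. Per the submitters' processing notes, the tools were featureCounts 1.5.0-p3, HISAT2 2.0.5, fastp, CASAVA 1.8 and DESeq2 1.20.0, on the build GRCm38. Strand setting, annotation release and the treatment of multiply mapping reads are not given in the sources used here, so near-identical P450 genes may share reads.

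P450 genes and all lists were chosen with earlier results of these data known. After edgeR's filterByExpr, 17114 genes were scaled by TMM and fitted over all 9 libraries with edgeR 4.0.16 in R 4.3.3 (robust quasi-likelihood test, Benjamini-Hochberg adjustment). The standard error is the log2 fold change over the square root of F. The named genes were the called P450 genes of each comparison (or the 6 of smallest p), the 12 of highest FPKM, a list of 18 kidney P450 enzymes, members of clusters (start sites under 500 kb apart) with a called gene, and called partner genes; other names were chosen after values were seen. Replicates differed beyond sampling noise (chi-square per degree of freedom 24.7 to 136).

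Replicate numbers come from the titles, which do not say what they mark. Deviations of same-numbered libraries from their group means correlated at 0.318, 0.195 and 0.256 for C59S and WT, over 0.1 in each pair, so that comparison is also given with a block. Differently numbered C59S and WT libraries correlated at -0.25 to 0.009. In another comparison differently numbered libraries reached 0.294 (C59A replicate 2 and C59S replicate 1), so such values do not show that the numbers pair samples. Alternatives were other scalings and filters, DESeq2 1.42.0, limma 3.58.1 (voom with quality weights, and log2 of FPKM plus 1 or 0.1), fits of 2 groups, blocks, thresholds and leaving out each library. A fit with the mitochondrial share as a covariate was added after seeing the data.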

Additional observations from a re-analysis of the deposited data

How the results depend on the processing

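P450 calls in C59A against WT numbered 10 to 17 under all alternatives run (13 as reported). In C59A against C59S (13) there were 8 with the replicate block in a fit of those 2 groups, 8 with limma on log2(FPKM + 1) without a filter, 7 at an adjusted p of 0.01, and 8 to 16 when each library was left out. In C59S against WT (0) there was 1 with the block in a fit of those 2 groups and 0 to 1 with a library left out. Partner gene calls were 14 (DESeq2), 15 (adjusted p 0.1) and 5 (0.01) in C59A against WT (9). They were 2 (DESeq2), 1 (2-group block) and 0 to 3 (libraries left out) in C59S against WT (0), and 13 (DESeq2), 13 (voom) and 12 (adjusted p 0.1) in C59A against C59S (7). Over all genes, C59A against WT (975) gave 1552 with DESeq2, 390 with the 2-group block, 410 with unfiltered FPKM, 434 with the mitochondrial covariate, 1679 at 0.1, 353 at 0.01 and 502 to 934 without a library. C59S against WT (0) gave 20 with library totals alone, 308 with no filter, 636 with DESeq2, 638 with the 2-group block, 1 at 0.1 and 0 to 737 without a library. C59A against C59S (1012) gave 670 with library totals, 1731 with DESeq2, 1768 with voom, 334 with the 2-group block, 657 and 670 with log2(FPKM + 1) and log2(FPKM + 0.1), 278 with unfiltered FPKM, 517 with the covariate, 1816 at 0.1, 257 at 0.01 and 318 to 1307 without a library. The cause was not tested. The replicate block gave 12 P450 calls over all 9 libraries in each comparison that involves C59A, and 12 in the 2-group fit against WT. Same-numbered libraries correlated at -0.094 to 0.049 (C59A and WT) and -0.288 to 0.05 (C59A and C59S), so these numbers are not shown to pair samples. Against C59S the 2-group block kept 7 of the 13 calls and lost Cyp2e1 (adjusted p 0.0613), Cyp4b1 (0.076), Cyp2d26 (0.0789), Cyp4a31 (0.0895), Cyp4a32 (0.0945) and Cyp2f2 (0.105). Over 1642 settings of 66 named fold changes, 1475 kept direction and side of the threshold, 116 lost the call, 49 gained it and 2 changed sign: Cyp26b1 in C59A against WT without WT replicate 3 (0.0396, in a range from -2.20 with libraries left out) and Cyp1a1 in C59S against WT with the mitochondrial covariate (-0.16). A level under 3 counts could not be told from 0.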

Other observations

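Pseudogene and antisense rows with P450 names, 19 in all, stayed outside the comparisons and had few reads. Cyp4b1-ps2 had 43 counts in C59A replicate 3, 1 in C59A replicate 2 and 0 elsewhere. Cyp21a2-ps had 73 counts in C59S replicate 2, the library with the Cyp21a1 counts, and 0 to 3 elsewhere, and 23.7% of the Cyp21a1 transcript windows of 50 bases were shared with it. Cyp4f41-ps had 4 to 21 counts in every library. For Cyp2j15-ps the counts were 21, 21 and 3 (WT), 5, 5 and 8 (C59A) and 2, 6 and 2 (C59S).

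Spread between libraries was similar in the 3 genotypes for the tested P450 genes: the median coefficient of variation was 28.9% for WT, 29.5% for C59A and 28.5% for C59S. It ran from 3.93% (Cyp2u1, a fatty acid hydroxylase) to 106% (Cyp26b1) in WT. In C59A the lowest was 2.26% (Cyp2j7) and the highest 149% (Cyp2c68), and in C59S 3.24% (Cyp27a1) and 90.3% (Cyp4f15). Cyp17a1, a steroid hydroxylase of the gonads, had 2 to 15 counts in every library. The Cyp3a genes, the leading drug-metabolizing P450 genes of liver, were near absent: of 9, Cyp3a13 alone was tested, at 0.191 to 1.007 CPM.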
